A study of Mus musculus with 4 samples.

Results

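The 10 genes described here handle iron and haem: Cd163, Hmox1, Hpx, Tfrc, Slc11a1, Slc11a2, Fth1, Ftl1, Slc40a1 and Spic. They were picked by name from the 32285 genes of 1 single-cell RNA matrix and were read in macrophages of mouse collecting lymphatics and their surrounding tissue, with the other cell classes of the same matrix set beside them. Macrophages were cells with at least 1 UMI (a counted RNA molecule) of Adgre1, which encodes the F4/80 antigen, and at least 2 of C1qa, a complement gene. They were divided by the summed UMIs of Cd209d and Cd209f, which encode C-type lectins of the CD209 family. Cd209-high macrophages had at least 2 of these UMIs and Cd209-none macrophages had 0. None of the 10 genes took part in choosing the cell classes or the Cd209 groups. The cells came from 4 male and 4 female untreated C57BL/6J mice aged 12 to 14 weeks, with vessels from 4 anatomical regions combined for each mouse and cells pooled by sex. No genotype or treatment was compared here.

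Macrophages that engulf red cells break haem open and recycle its iron. CD163 takes up haemoglobin bound to haptoglobin, haem oxygenase-1 (Hmox1) releases the iron, ferritin (the heavy chain Fth1 and the light chain Ftl1) stores it, and ferroportin (Slc40a1) exports it to plasma, where transferrin carries it to cells with the transferrin receptor (Tfrc). Iron regulatory proteins bind short RNA hairpins called iron-responsive elements, blocking translation when these lie in a 5′ UTR and stabilising the RNA when they lie in the 3′ UTR of Tfrc, so part of this control acts after transcription and is not read by RNA levels alone.

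The hairpins themselves are shown first, for the members in which a search found them. Whole annotated protein-coding transcripts, UTRs and coding sequence alike, were searched on the strand of the transcript. The pattern was an unpaired C, a 5-base stem in which G-T pairs were allowed, and a 6-base loop CAGTGN whose last base was A, C or T. The search found 7 elements in 4 of the 10 members, all in UTRs. At least 1 match, in any part of a transcript, was in 222 of 21877 coding genes (1.01%). Each window below is 30 bases of the GRCm38 transcript annotation (GENCODE M21), written 5′ to 3′ on the strand of the gene, with the loop in capitals.

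Fth1, 5′ UTR, chr19:9982732-9982761, plus strand: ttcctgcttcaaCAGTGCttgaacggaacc
Ftl1, 5′ UTR, chr7:45459778-45459807, minus strand: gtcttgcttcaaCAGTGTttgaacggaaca
Slc40a1, 5′ UTR, chr1:45925464-45925493, minus strand: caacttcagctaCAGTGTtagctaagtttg
Tfrc, 3′ UTR, chr16:32631219-32631248, plus strand: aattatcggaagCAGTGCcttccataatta
Tfrc, 3′ UTR, chr16:32631598-32631627, plus strand: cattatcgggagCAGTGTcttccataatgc
Tfrc, 3′ UTR, chr16:32631663-32631692, plus strand: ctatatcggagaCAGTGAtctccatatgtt
Tfrc, 3′ UTR, chr16:32631710-32631739, plus strand: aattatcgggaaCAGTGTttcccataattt

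The single elements of Fth1, Ftl1 and Slc40a1 lay in 5′ UTRs, and the 4 elements of Tfrc all lay in its 3′ UTR. Not every transcript held them. The Fth1 element was in 4 of 5 coding transcripts, that of Ftl1 in 1 of 2 and that of Slc40a1 in 1 of 4. Each Tfrc element was in 1 of 3. For Cd163, Hmox1, Hpx, Slc11a1, Slc11a2 and Spic the pattern was not found, which says only that their annotated coding transcripts lack it. It does not place these genes outside such control, because elements that depart from the pattern were not searched for.

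The matrix held 24046 cell barcodes with 232753017 gene UMIs and a median of 8684.5 UMIs per barcode, and 22860 cells were kept. The barcodes carry 8 suffixes, which are not tied to a mouse or sex in the sources used here; in each suffix 1 multiplexing tag took 84.4 to 89.0% of tag UMIs. Each suffix held 2375 to 3315 barcodes and 23828933 to 32467001 UMIs. The same 4 tags led suffixes 1 to 4 and suffixes 5 to 8, 1 suffix each. Suffixes 1 to 4 shared 0 barcodes among themselves, as did suffixes 5 to 8, over 12 pairs in all, whereas the 16 pairs across these sets shared 44 barcodes, so values within each set are given where they bear on a result. All cells come from 1 pooled matrix and count as 1 sample, so no test was made; suffix values describe spread, and the exact 95% intervals cover counting error only. Levels are UMIs per 1000000 gene UMIs of the class, written CPM. The classes were 5286 macrophages, 26 monocytes, 409 dendritic cells, 7095 fibroblasts, 1713 smooth muscle cells, 31 pericytes, 737 mesothelial cells, 540 lymphatic endothelial cells, 239 blood endothelial cells, 261 B cells and 176 T cells. Markers that took no part in the gates were detected in full in each class, and their sum was highest in the class they mark, from 938 CPM in pericytes to 16688 CPM in blood endothelial cells. The exception was the monocyte list, with 2449.6 CPM in monocytes and 3399 CPM in macrophages, which hold much F13a1. Pericytes also had 7576 CPM of blood endothelial markers, and they and the monocytes are too few for firm levels.

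Cd163, the haptoglobin-haemoglobin scavenger receptor (chr6:124304656-124330527), was at 808 CPM in macrophages, with 593, 823 and 935 CPM in the lowest, median and highest suffix. Dendritic cells had 31.6 CPM and monocytes 13.9 CPM, while fibroblasts, smooth muscle, mesothelial, endothelial, B and T cells lay between 2.44 and 7.47 CPM. The 48.3 CPM of pericytes rested on 7 UMIs in 2 cells. At least 1 Cd163 UMI was seen in 80.1% of macrophages against 6.44% of fibroblasts, and in 65.1% against 1.32% after each cell was thinned to 2000 UMIs.

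That fibroblast level has to be read beside free RNA in droplets. C1qb, a complement gene that stroma should lack, stood at 0.697 to 1.39% of its macrophage level in the dendritic, fibroblast, smooth muscle, mesothelial, endothelial, B and T cells. C1qc stood at 0.638 to 0.936% in the same classes. Cd163 stood at 0.302 to 0.924% of its macrophage level outside the dendritic, monocyte and pericyte classes, which is within or below the C1qb range. It was at 3.91% in dendritic cells, above that range. Their gate, however, left out cells with more than 1 C1qa UMI or any Adgre1 UMI, so C1qb was read there in cells chosen for little macrophage RNA. What this did to the comparison was not tested.

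Hmox1, which encodes the enzyme that cleaves haem to biliverdin, carbon monoxide and iron (chr8:75093621-75100589), was at 625 CPM in macrophages, with suffixes at 491, 544 and 749 CPM (lowest, median and highest). Monocytes had 88.3 CPM, and pericytes 82.8 CPM from 12 UMIs. Fibroblasts, mesothelial cells and blood endothelial cells had 23.9, 23.6 and 21.6 CPM, lymphatic endothelial cells 16.6 CPM, smooth muscle 11.7 CPM and dendritic cells 8.05 CPM. Relative to macrophages these were 3.82% in fibroblasts, 3.77% in mesothelial cells and 3.45% in blood endothelial cells, above the 1.39% reached by C1qb. B cells (0.668%) and T cells (0.780%) were below it. The detected share was 88.7% of macrophages, or 63.2% at 2000 UMIs per cell.

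Hpx encodes hemopexin, the plasma protein that binds free haem and is made mainly by liver (chr7:105591613-105600137). It gave 24 UMIs in 24 macrophages (0.573 CPM), 7 UMIs in mesothelial cells (0.612 CPM), 25 in fibroblasts (0.294 CPM) and 2 in smooth muscle (0.140 CPM), and 0 in the other classes. No class reached 1 CPM, so Hpx was left out of every comparison, which needed 10 CPM in 1 of the groups.

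Tfrc, the transferrin receptor (chr16:32608920-32632794), was at 121 CPM in macrophages, with suffixes at 84.2, 119 and 153 CPM. The next classes were B cells at 26.1 CPM, T cells at 22.8 CPM and dendritic cells at 17.0 CPM, which are 21.6%, 18.8% and 14.0% of the macrophage level. Pericytes, blood endothelial cells and smooth muscle had 13.8, 13.2 and 10.5 CPM, and monocytes, mesothelial cells, lymphatic endothelial cells and fibroblasts had 3.55 to 4.65 CPM. Tfrc was therefore seen in blood cells as well as macrophages, at several times the C1qb background, and lower in the stromal classes. A Tfrc UMI was present in 49.9% of macrophages, or 22.5% at 2000 UMIs per cell.

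Slc11a1 (NRAMP1), the divalent metal transporter of the phagosome membrane (chr1:74375195-74386062), had its highest level outside macrophages. Smooth muscle cells had 141 CPM (135 to 148) with suffixes at 124, 138 and 180.4 CPM, against 95.3 CPM in macrophages with suffixes at 83.1, 97.7 and 112 CPM. The suffix ranges did not overlap, and the smooth muscle level was 148% (141 to 156%) of the macrophage level. Slc11a1 was in 59.0% of smooth muscle cells against 48.1% of macrophages, and at 2000 UMIs per cell the intervals of these shares were 23.0 to 27.2% against 16.0 to 18.1%. Within suffixes 1 to 4 the smooth muscle level was 1.24 times that of macrophages, and within suffixes 5 to 8 it was 1.69 times.

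The summed macrophage markers were at 119.7 CPM in smooth muscle cells against 9305 CPM in macrophages. Smooth muscle cells with a Slc11a1 UMI (1010 cells) had 23.0 CPM of C1qa and 5.85 CPM of the macrophage receptor gene Csf1r, and those without one (703 cells) had 27.2 and 7.35 CPM. Cd68 was also lower with a Slc11a1 UMI, at 4.28 and 6.06 CPM, while Adgre1 (4.05 and 3.12 CPM) and Lyz2, the lysozyme gene of myeloid cells (43.8 and 36.9 CPM), were higher. Of these 5 macrophage genes 3 were thus lower and 2 higher in the smooth muscle cells that carried Slc11a1. Csf1r rested on 52 and 40 UMIs, Cd68 on 38 and 33 and Adgre1 on 36 and 17, so nothing is read from these directions. The next gene on the same strand, Ctdsp1, starts 5447 bases after the annotated end of Slc11a1 and was at 51.8 CPM in the smooth muscle cells with a Slc11a1 UMI and 44.3 CPM in those without; whether reads were assigned across that gap was not tested. Pericytes and monocytes were at 124 and 112 CPM from few cells, and every other class was at or below 12.0 CPM. C57BL/6 mice are known to carry a loss-of-function allele of Slc11a1, so these RNA levels say nothing of transport.

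Slc11a2 (DMT1), which moves ferrous iron across the plasma and endosome membranes (chr15:100387898-100425072), was at 139 CPM in macrophages, with suffixes at 119, 141 and 158 CPM. All other classes lay between 7.83 CPM in B cells and 27.9 CPM in monocytes; fibroblasts had 22.4 CPM and smooth muscle 17.5 CPM. The macrophage level stood apart from these lower levels, which also differed among themselves. Gm5475 overlaps this gene on the opposite strand.

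The ferritin chains differed from each other. Fth1, the ferroxidase chain (chr19:9980598-9985098), was at 6791 CPM in macrophages with suffixes at 5798, 6716 and 8059.7 CPM. Lymphatic endothelial cells had 9634 CPM with suffixes from 8324 to 10753 CPM, all above the highest macrophage suffix, and fibroblasts and mesothelial cells had 8384 and 7922 CPM. Monocytes and smooth muscle were at 6791 and 6724 CPM, and the other classes lay between 2619.8 CPM in T cells and 4074 CPM in blood endothelial cells.

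Ftl1, the chain that aids iron core formation (chr7:45457944-45459884), was at 6377 CPM in macrophages, with suffixes at 5189.7, 6299.9 and 7331 CPM. Monocytes had 4304 CPM, mesothelial cells 3428 CPM, fibroblasts 2172 CPM and dendritic cells 2045 CPM. Blood endothelial cells, pericytes, B cells and lymphatic endothelial cells had 1258 to 1477 CPM, T cells 965 CPM and smooth muscle 796 CPM. The chains thus ordered the classes differently: lymphatic endothelial cells were highest for Fth1 and near the low end for Ftl1. The annotated genes Gm22133 and Gm10252 overlap Ftl1, and the near-identical copy Ftl1-ps1 took 0.419 to 1.07% of the UMIs of both, so Ftl1 levels could shift by about that much.

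The ratio of Fth1 to Ftl1 UMIs brings these differences into 1 value per class. It was 1.06 in macrophages, with suffixes from 0.885 to 1.15. Dendritic cells had 1.55 (1.22 to 1.93 over suffixes), monocytes 1.58 and mesothelial cells 2.31 (1.64 to 3.94). B cells, T cells, blood endothelial cells and pericytes lay between 2.68 and 2.77. Fibroblasts had 3.86 (3.17 to 4.68), lymphatic endothelial cells 7.66 (6.93 to 8.58) and smooth muscle 8.45 (7.44 to 9.71). No suffix of another class with enough cells overlapped the macrophage range.

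**Figure D1:**
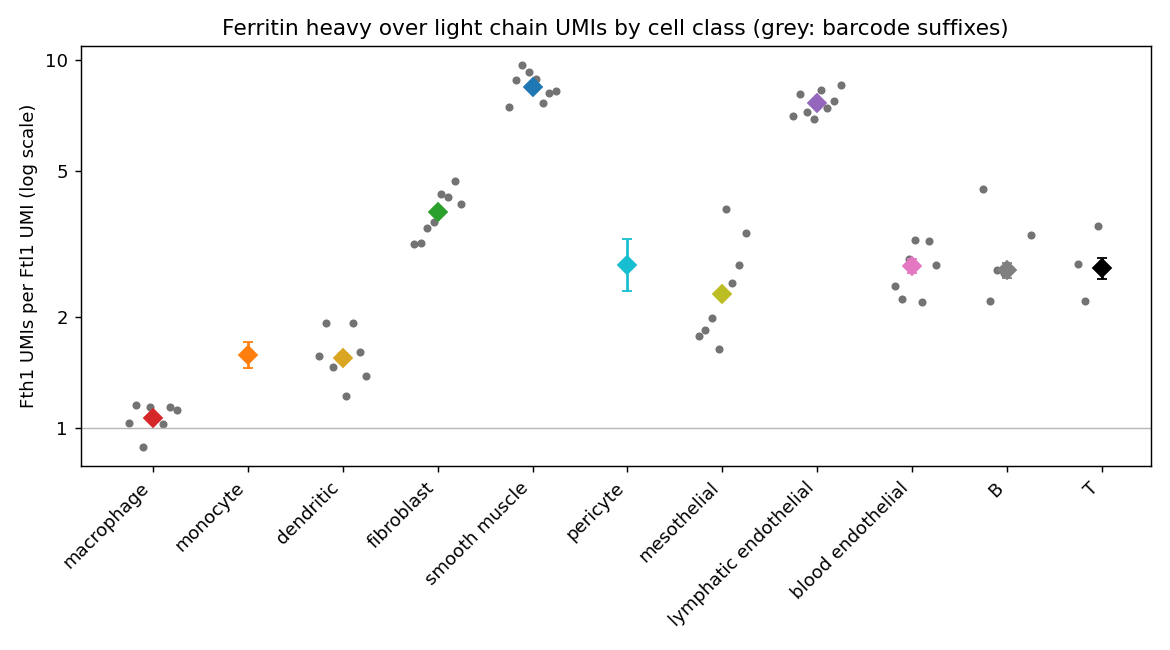
Ratio of Fth1 to Ftl1 UMIs (log axis) by cell class, with the value over all cells and the values of single barcode suffixes. Macrophages sit near 1 (1.06), and lymphatic endothelial cells (7.66) and smooth muscle (8.45) are highest.

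Slc40a1, the iron exporter ferroportin (chr1:45908068-45926523), was at 21.6 CPM in macrophages (20.2 to 23.1), and its suffixes spread from 5.13 through a median of 21.4 to 50.2 CPM. Fibroblasts had 2.06 CPM, lymphatic endothelial cells 1.15 CPM, smooth muscle 1.12 CPM and blood endothelial cells 1.05 CPM, and all others were below 1 CPM. Monocytes had 0 UMIs, with an upper limit of 17.1 CPM. The fibroblast level was 9.54% (8.07 to 11.2%) of the macrophage level, above the C1qb background, and smooth muscle and lymphatic endothelial cells had 5.17% and 5.32%. Only 11.4% of macrophages held a Slc40a1 UMI, and 3.86% did at 2000 UMIs per cell.

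Spic encodes SPI-C, a transcription factor needed for red pulp macrophages of the spleen and induced by haem (chr10:88674772-88685015). It was at 31.7 CPM in macrophages, with suffixes at 24.9, 32.0 and 45.2 CPM. Monocytes had 4.65 CPM from 1 UMI, B cells 1.04 CPM, and every other class at most 0.283 CPM. Spic was seen in 15.6% of macrophages, or 6.14% at 2000 UMIs per cell.

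**Figure D2:**
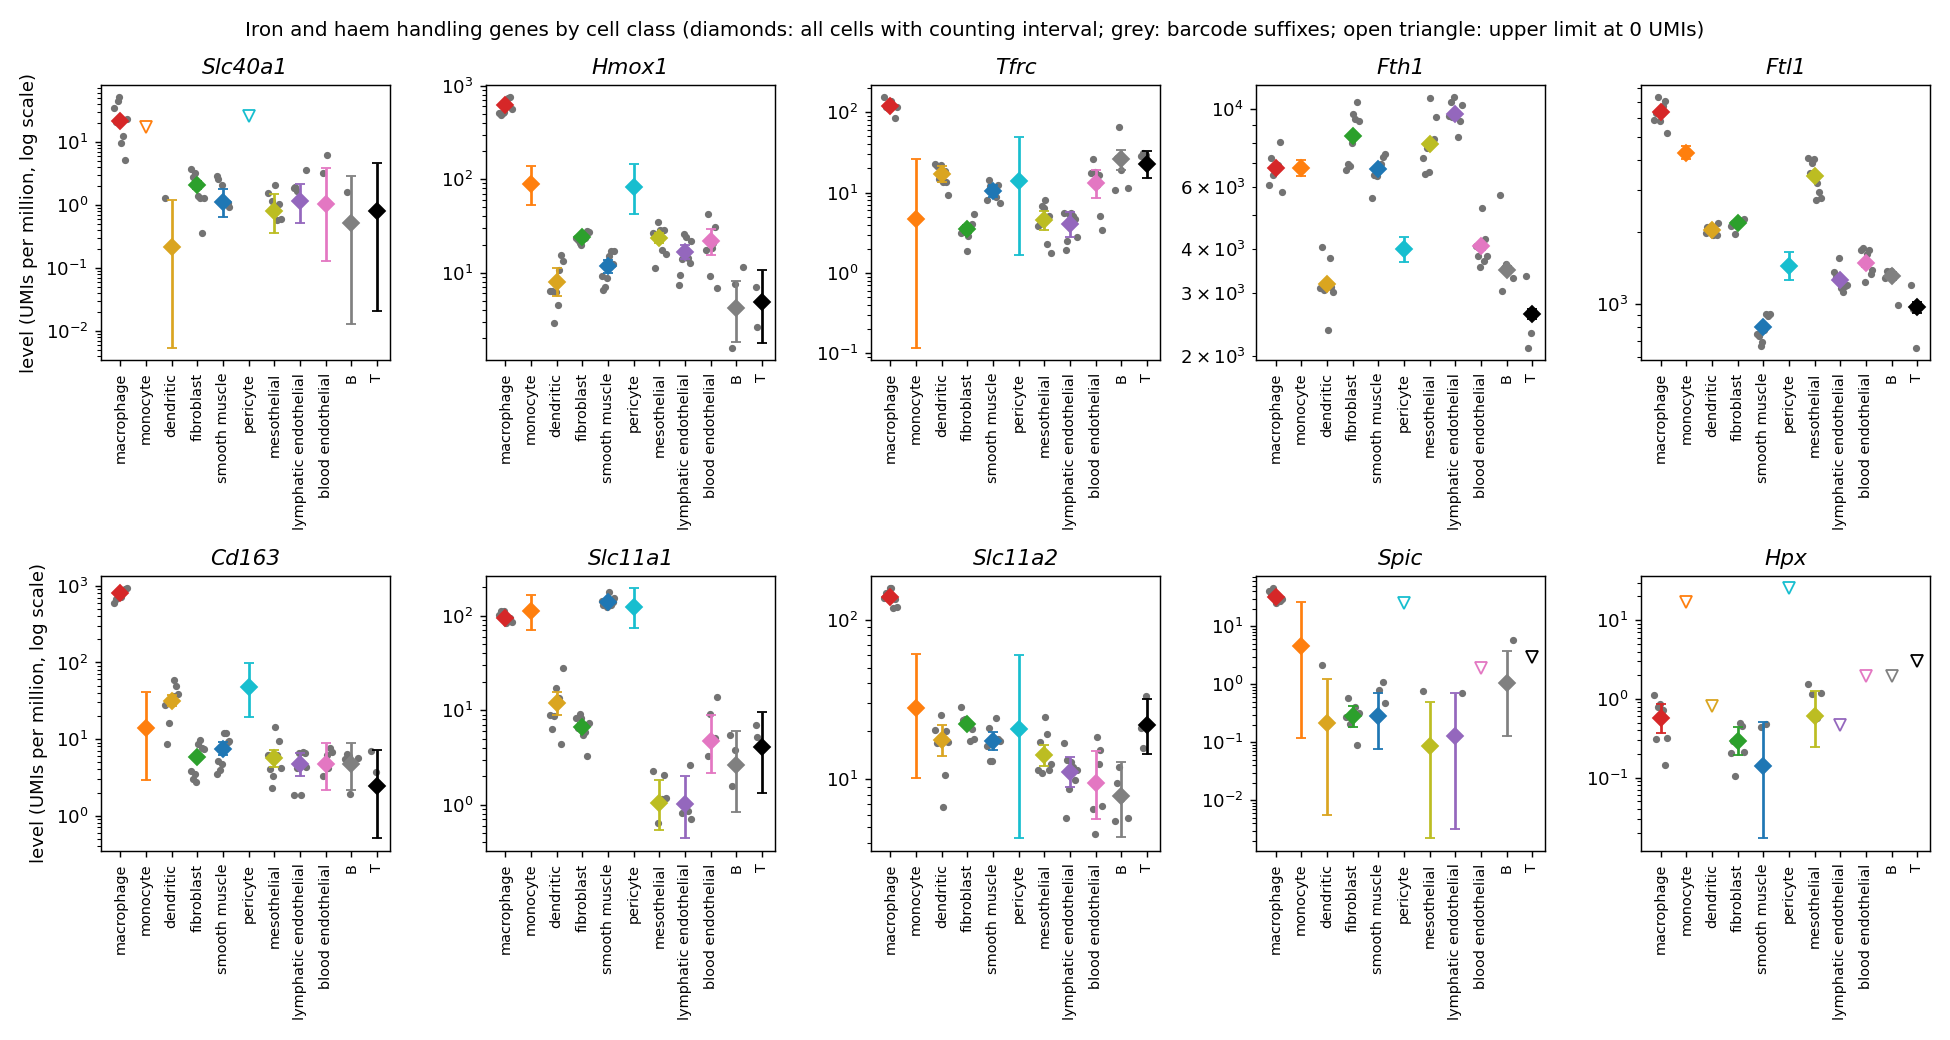
Level of each of the 10 genes (CPM, log axis) in the 11 cell classes; diamonds give all cells with the exact 95% counting interval, grey points single barcode suffixes with at least 20 cells, and open triangles the upper limit where no UMI was counted. Cd163, Hmox1, Tfrc, Slc11a2, Ftl1, Slc40a1 and Spic are highest in macrophages, Fth1 is highest in lymphatic endothelial cells (9634 CPM), and Slc11a1 in smooth muscle (141 CPM).

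A member was counted as past the fold between classes where the ratio of CPM + 1 was at least 2 and 1 of the classes reached 10 CPM. Over macrophages, 9 of 9 such members were higher than in dendritic cells (background 21.8% of 8885 genes) and 9 than in T cells (20.4%). Against fibroblasts (21.8%), lymphatic endothelial cells (19.5%), blood endothelial cells (17.5%) and B cells (21.3%) 8 were higher, Fth1 being the exception each time. Against smooth muscle (21.6%) and pericytes (22.8%) 7 were higher, without Fth1 and Slc11a1, and against mesothelial cells (22.5%) 7, without Fth1 and Ftl1. Against monocytes (25.6%) 6 were higher, without Fth1, Ftl1 and Slc11a1. Against each of the 10 classes 0 members were lower in macrophages. In each comparison 2 to 6 of the 9 members reached 10 CPM in macrophages alone and could only be counted as higher, among them Slc40a1 and Spic every time, so nothing is read from the counts beyond the levels given above. The share of all genes that were lower was 14.5% against monocytes, 13.8% against dendritic cells, 21.1% against fibroblasts, 26.6% against smooth muscle and 30.1% against pericytes. It was 27.1% against mesothelial cells, 21.0% against lymphatic and 22.8% against blood endothelial cells, 21.9% against B cells and 26.1% against T cells. The median log2 ratio of the 9 members was between 2.54 against monocytes and 4.58 against lymphatic endothelial cells, while the median over all genes compared was between -0.29 and 0.12. The member medians take in the members that reached 10 CPM in macrophages alone, so nothing is read from them either.

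Within macrophages, the Cd209 split separated 4251 Cd209-high cells (80.4%, median 7571 UMIs) from 713 Cd209-none cells (13.5%, median 7077 UMIs); the remaining 322 had 1 Cd209 UMI. Cd163, Hmox1, Tfrc and Slc40a1 were higher in the Cd209-high cells by at least 1.5 times, the fold used for divisions of macrophages. These were 4 of the 9 members at 10 CPM, with 8.60% of 8497 genes past the fold in that direction, and 0 of 9 were lower, with 8.25% of genes lower. The median log2 ratio was 0.32 over these 9 members and 0.05 over all genes compared.

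Cd163 was at 691, 905 and 1063 CPM in the lowest, median and highest Cd209-high suffix, against 224, 372 and 552 CPM in Cd209-none suffixes. The ranges did not overlap, and the ratio over all cells was 2.54 (2.42 to 2.65; 899 against 354 CPM). It was 2.78 within suffixes 1 to 4 and 2.33 within suffixes 5 to 8. Hmox1 was at 549.6, 616 and 802 CPM in Cd209-high suffixes, against 215, 295 and 468 CPM in Cd209-none suffixes. These did not overlap either, with a ratio of 2.18 (2.08 to 2.29), or 2.20 and 2.07 within the sets. Tfrc was at 88.9, 133 and 177 CPM in Cd209-high suffixes, against 39.9, 59.7 and 67.5 CPM in Cd209-none suffixes. The ratio was 2.41 (2.15 to 2.71), or 2.32 and 2.58 within the sets, again without overlap.

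Slc40a1 was at 5.60, 24.3 and 55.9 CPM in Cd209-high suffixes, against 1.31, 9.02 and 28.1 CPM in Cd209-none suffixes. The ranges overlapped widely, although the Cd209-high value was higher in 8 of 8 suffixes. The ratio over all cells was 1.95 (1.52 to 2.55; 23.4 against 12.0 CPM), or 2.21 and 2.38 within the sets. This rested on 800 UMIs in 537 Cd209-high cells, against 67 UMIs in 39 Cd209-none cells, and single cells held up to 30 of the UMIs in the Cd209-high and 12 in the Cd209-none group. The direction turned when every cell was thinned to 2000 UMIs before gating, with 84 UMIs in 1820 Cd209-high cells against 42 UMIs in 630 Cd209-none cells, of which 8 were in 1 cell. Among macrophages without Ccr2 UMIs the ratio was 1.32 (0.978 to 1.83).

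The other 5 members stayed inside the fold. Fth1 was at 6936 CPM in Cd209-high and 6239.8 CPM in Cd209-none cells (ratio 1.11), and Ftl1 at 6461 and 6059 CPM (1.07), both higher in 7 of 8 suffixes. Slc11a2 was at 144 and 115 CPM (1.25), higher in 8 of 8 suffixes. Slc11a1 was at 93.9 and 103 CPM (0.911), and Spic at 30.3 and 36.1 CPM (0.840); Spic was lower in 4 suffixes and higher in 4. The genes of haem uptake, haem cleavage and transferrin uptake were thus past the fold, and both ferritin chains were within it. Hpx had 23 UMIs in Cd209-high cells and 1 in Cd209-none cells.

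**Figure D3:**
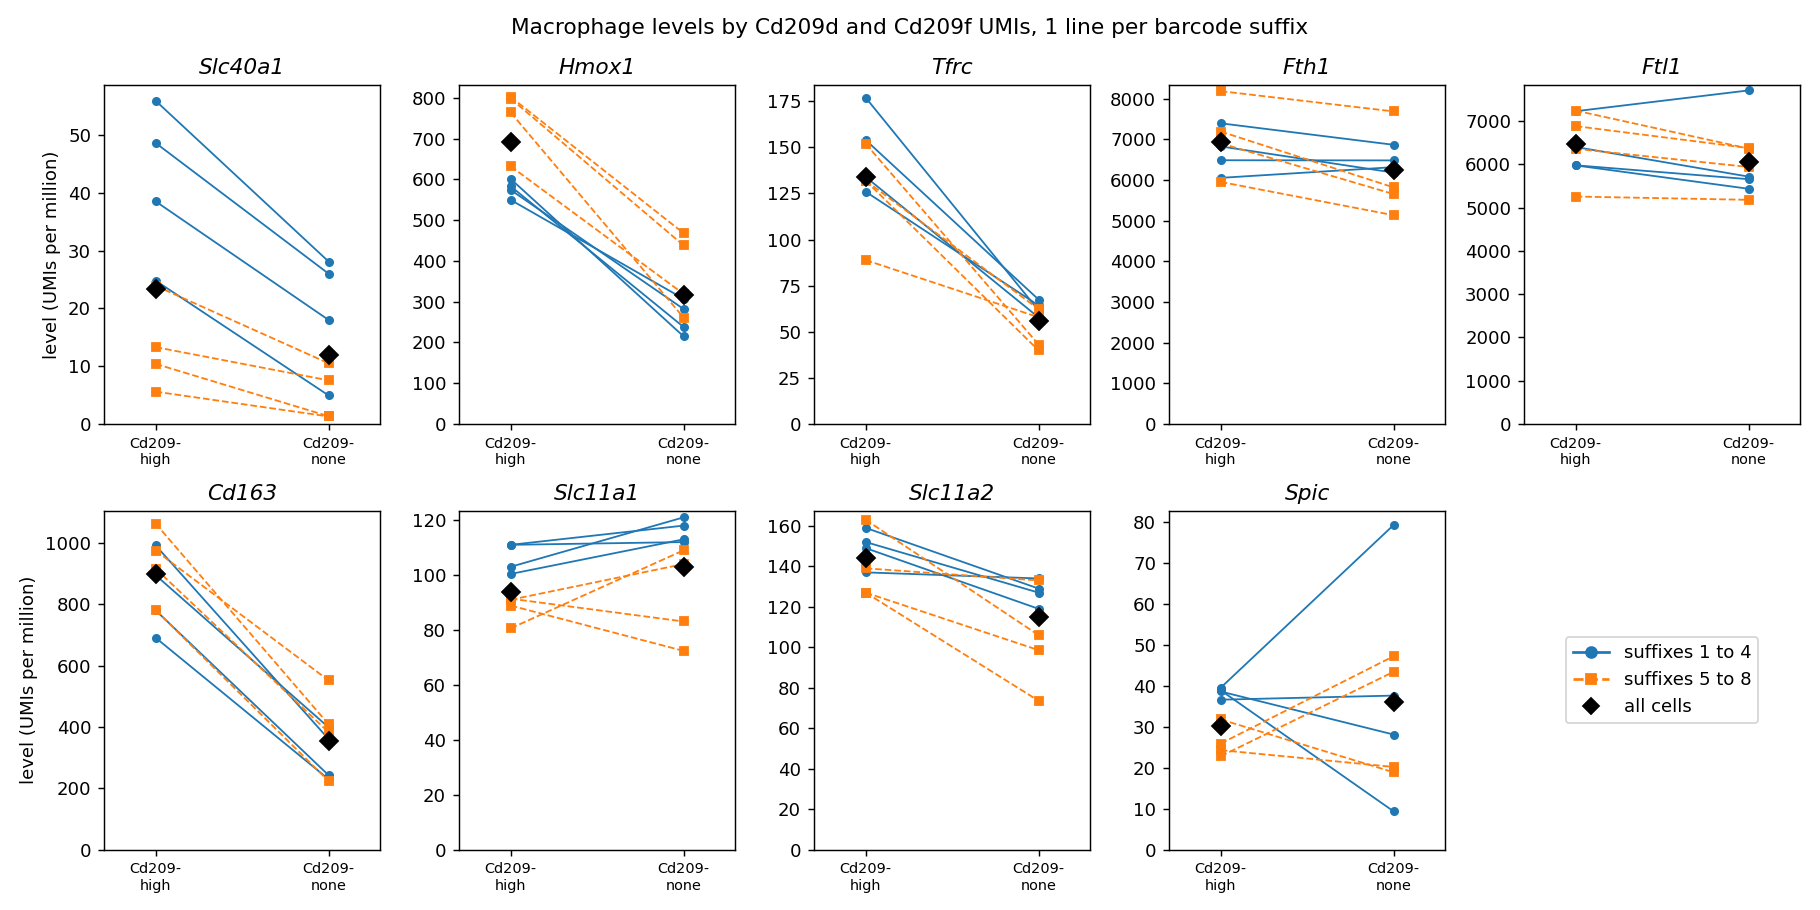
Level of 9 members (CPM) in Cd209-high and Cd209-none macrophages, each line joining 1 barcode suffix (suffixes 1 to 4 solid blue, 5 to 8 dashed orange) and black diamonds giving all cells. The lines for Cd163, Hmox1 and Tfrc fall without overlap between the groups, those for Slc40a1 fall but overlap, and those for Spic go both ways.

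Markers of other cells were read in both groups. Summed macrophage markers were at 9723 CPM (suffixes 9268 to 10229) in Cd209-high cells and 7315 CPM (6624 to 8526) in Cd209-none cells. Monocyte markers summed to 3638 and 2139 CPM, of which F13a1 gave 3567 and 1719 CPM; Ccr2, a chemokine receptor of monocytes, ran the other way at 49.9 and 392 CPM. Neutrophil markers summed to 85.2 and 73.6 CPM, with Cxcr2 and Retnlg at 0 in Cd209-none cells. Dendritic markers summed to 173 and 76.1 CPM, of which Cd209a gave 149.8 and 20.5 CPM, while Itgax was at 0.702 and 14.1 CPM and Ccr7 at 0.702 and 12.0 CPM. Fibroblast markers were at 290 (153 to 425) and 376 CPM (117 to 787), and lymphatic endothelial markers at 731 (509 to 928) and 381 CPM (125 to 883), where Lyve1, which perivascular macrophages also express, gave 719 and 322 CPM. T cell markers were at 1.11 and 11.1 CPM, of which Il7r gave 0.585 and 10.2 CPM. Red cell markers were at 15.4 and 26.8 CPM, and haemoglobin RNA without the richest cell of each group at 15.2 and 15.7 CPM. Without the cells that held a UMI of Flt3, Prox1, Cdh5, Pdgfra or Myh11, 4 members were again past the fold, with log2 ratios of 1.36 for Cd163, 1.14 for Hmox1, 1.23 for Tfrc and 1.03 for Slc40a1.

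Levels across the Cd209 range took a different course for each gene. In cells with 0, 1, 2 to 4, 5 to 9, 10 to 19 and 20 or more Cd209 UMIs, Cd163 was at 354, 537, 740.1, 885, 909 and 955 CPM. Hmox1 was at 316, 388, 533, 639.7, 701 and 767 CPM in the same bins. Both were higher at each step, with most of the gain below 10 Cd209 UMIs. Tfrc was at 55.6, 88.0, 109.8, 138, 140.1 and 134 CPM, which levelled off at 5 to 9 UMIs. Slc11a2 showed a shallow slope, with 115, 127, 129, 142, 147 and 148 CPM. Median depth was 7077, 6050, 5728, 6385, 7465 and 9424 UMIs per cell in these bins.

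Slc40a1 and Spic were highest in the middle of the range. Slc40a1 was at 12.0, 18.1, 27.6, 25.8, 24.2 and 19.7 CPM, and Spic at 36.1, 43.3, 48.3, 33.3, 33.1 and 19.4 CPM. Within suffixes 1 to 4, Slc40a1 was at 19.5, 24.1, 56.0, 48.3, 46.9 and 32.3 CPM. Within suffixes 5 to 8 it was at 5.36, 14.5, 11.2, 13.4, 13.2 and 12.5 CPM, with no such peak. Spic was lowest at 20 or more Cd209 UMIs in both sets, with 19.4 CPM in each, and highest at 2 to 4 UMIs, with 61.6 CPM in suffixes 1 to 4 and 40.5 CPM in suffixes 5 to 8. Ccr2 was lower at each successive bin, with 392, 263, 123, 53.1, 37.6 and 33.1 CPM.

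**Figure D4:**
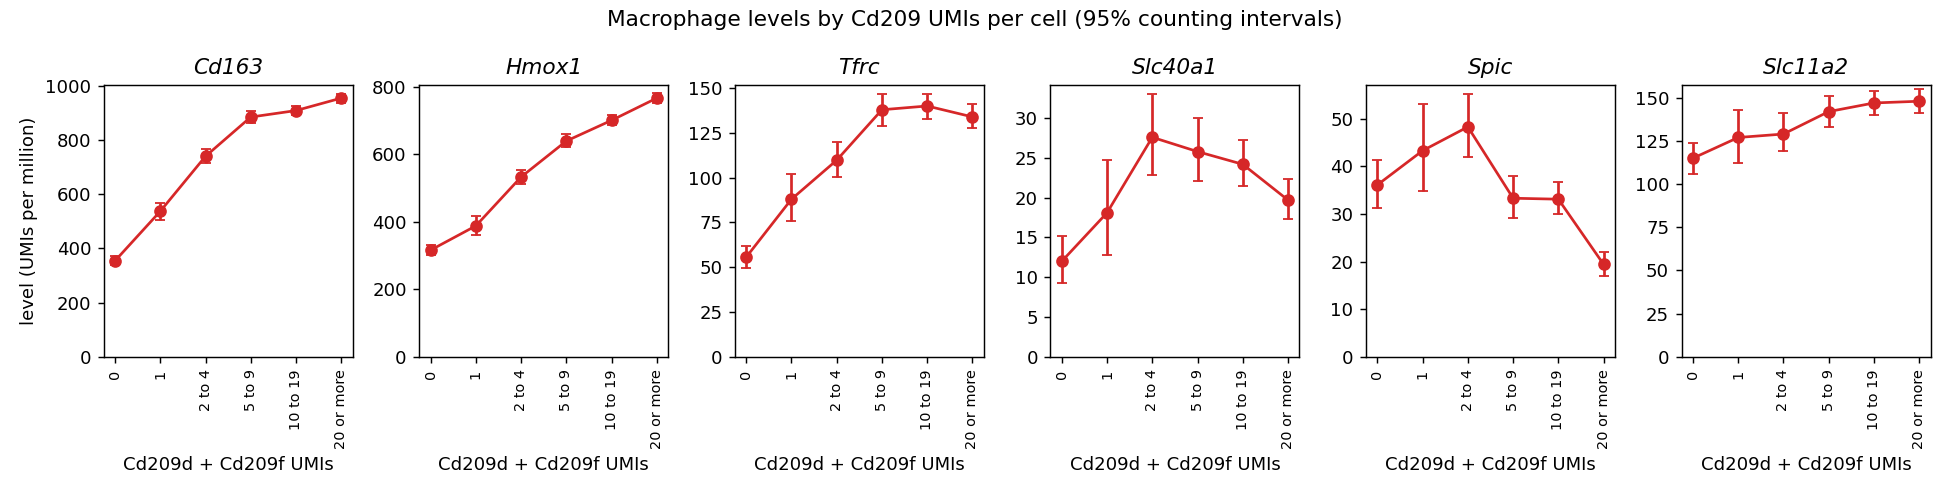
Level (CPM) of Cd163, Hmox1, Tfrc, Slc40a1, Spic and Slc11a2 in macrophages binned by their Cd209d and Cd209f UMIs (0, 1, 2 to 4, 5 to 9, 10 to 19, and 20 or more; 713, 322, 674, 965, 1429 and 1183 cells). Cd163 and Hmox1 are higher at each bin, and Slc40a1 (27.6 CPM) and Spic (48.3 CPM) are highest at 2 to 4 UMIs.

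Because Ccr2 moved with the split, macrophages were also divided by it, into 654 Ccr2-high cells with at least 2 UMIs (median 8983.5 UMIs per cell) and 4403 Ccr2-none cells with 0 (median 7201). In Ccr2-high cells 5 of 9 members were lower by at least 1.5 times, namely Slc40a1, Spic, Cd163, Hmox1 and Tfrc, with 9.96% of 8472 genes lower. No member was higher, with 8.12% of genes higher. The median log2 ratio was -0.76 over the 9 members and -0.05 over all genes.

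Slc40a1 showed the widest gap. It reached 10 CPM in Ccr2-none cells alone, so it could only be counted as lower. It was at 0, 2.26 and 5.39 CPM in the lowest, median and highest Ccr2-high suffix, against 5.58, 26.2 and 61.2 CPM in Ccr2-none suffixes. The ranges did not overlap, and the level over all cells was 11.4-fold lower (6.84 to 20.4) in Ccr2-high cells, from 15 UMIs against 853. The ratio was 0.0577 within suffixes 1 to 4 and 0.135 within suffixes 5 to 8. Spic was at 9.18, 14.8 and 19.6 CPM in Ccr2-high suffixes, against 27.2, 37.5 and 49.1 CPM in Ccr2-none suffixes, without overlap and with a ratio of 0.415. Cd163 was at 348, 481 and 617 CPM in Ccr2-high suffixes, against 671, 883 and 1062 CPM in Ccr2-none suffixes, again without overlap, with a ratio of 0.538.

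Hmox1 was at 281, 352 and 555 CPM in Ccr2-high suffixes, against 540.2, 607 and 781 CPM in Ccr2-none suffixes, a narrow overlap with a ratio of 0.558. Tfrc was at 76.4 CPM in Ccr2-high and 130.4 CPM in Ccr2-none cells (ratio 0.586). All 5 genes were lower in Ccr2-high cells in 8 of 8 suffixes. When cells were thinned to 2000 UMIs before gating, Tfrc was no longer past the fold, with a log2 ratio of -0.09 against -0.76, and Slc11a2 was, with -0.70 against -0.44. The other 4 stayed inside the fold, with Fth1 at 5679.8 and 7014 CPM, Ftl1 at 5678 and 6519 CPM, Slc11a1 at 97.7 and 95.2 CPM and Slc11a2 at 108 and 146 CPM. As with Cd209, the ferritin chains and Slc11a1 moved least. Summed macrophage markers were at 7259.7 CPM in Ccr2-high and 9752 CPM in Ccr2-none cells, and monocyte markers at 2553 and 3602 CPM, of which F13a1 gave 1883 and 3582 CPM and Ccr2, which made the division, 635 and 0 CPM. Among the other monocyte genes Ms4a4c was higher in Ccr2-high cells (24.4 and 5.94 CPM), Vcan was at 10.1 and 13.5 CPM, and Chil3 was below 1 CPM in both. Dendritic markers summed to 112 and 168 CPM, of which Cd209a gave 61.9 and 144 CPM and Zbtb46 16.4 and 19.9 CPM, while Itgax (10.2 and 1.02 CPM), Ccr7 (5.86 and 1.65 CPM), H2-DMb2 (14.7 and 0.870 CPM), Clec9a (2.10 and 0.180 CPM) and Xcr1 (0.902 and 0.210 CPM) were higher in Ccr2-high cells. Their part in the Ccr2 result was not tested.

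Crossing the divisions gave 275 Cd209-high and Ccr2-high cells, 3823 Cd209-high and Ccr2-none cells, 296 Cd209-none and Ccr2-high cells, and 359 Cd209-none and Ccr2-none cells. Slc40a1 was lower with Ccr2 at either Cd209 level. It was at 3.69 CPM (11 UMIs) in Cd209-high cells with Ccr2 and 25.9 CPM (773 UMIs) in Cd209-high cells without it, 7.02-fold lower with Ccr2. Among Cd209-none cells it was at 0.700 CPM (2 UMIs) with Ccr2 and 19.6 CPM (45 UMIs) without it, 28.0-fold lower with Ccr2. The counting intervals of the ratios overlapped, at 0.0709 to 0.256 among Cd209-high and 0.00420 to 0.137 among Cd209-none cells. Both gaps had the same direction in 8 of 8 suffixes. Among Cd209-none cells the Ccr2-high side held 2 UMIs over all suffixes, with a median of 0 CPM, so that direction could hardly differ. With Cd209, Slc40a1 was 1.32 times as high among Ccr2-none cells (0.978 to 1.83), higher in 7 of 8 suffixes. Among Ccr2-high cells that ratio was 5.27 (1.15 to 48.9), from 11 and 2 UMIs, higher in 5 suffixes and lower in 1. Spic was also lower with Ccr2 at either Cd209 level, with ratios of 0.576 among Cd209-high and 0.259 among Cd209-none cells.

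Cd163, Hmox1 and Tfrc were higher with Cd209 at either Ccr2 level. Among Ccr2-none cells Cd163 was at 911 CPM in Cd209-high and 540.0 CPM in Cd209-none cells (ratio 1.69, 1.59 to 1.79). Hmox1 was at 707 and 418 CPM (1.69, 1.59 to 1.81), and Tfrc at 136 and 70.1 CPM (1.94, 1.65 to 2.28). All were higher in 8 of 8 suffixes. Among Ccr2-high cells the ratios were 4.04 for Cd163 (789.7 against 196 CPM), 2.32 for Hmox1 (536 against 231 CPM) and 2.95 for Tfrc (118 against 39.9 CPM), again in 8 of 8 suffixes. The same genes were also lower with Ccr2 at either Cd209 level. Within Cd209-none cells, the ratio of Ccr2-high to Ccr2-none cells was 0.362 for Cd163, 0.554 for Hmox1 and 0.570 for Tfrc, all lower in 8 of 8 suffixes. Within Cd209-high cells it was 0.759 for Hmox1, lower in 8 of 8, and 0.867 for Cd163 and for Tfrc, each lower in 5 of 8. Spic went the other way from Cd163 among Ccr2-none cells, at 32.0 CPM in Cd209-high and 50.0 CPM in Cd209-none cells (ratio 0.640, 0.527 to 0.783; lower in 6 of 8 suffixes).

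**Figure D5:**
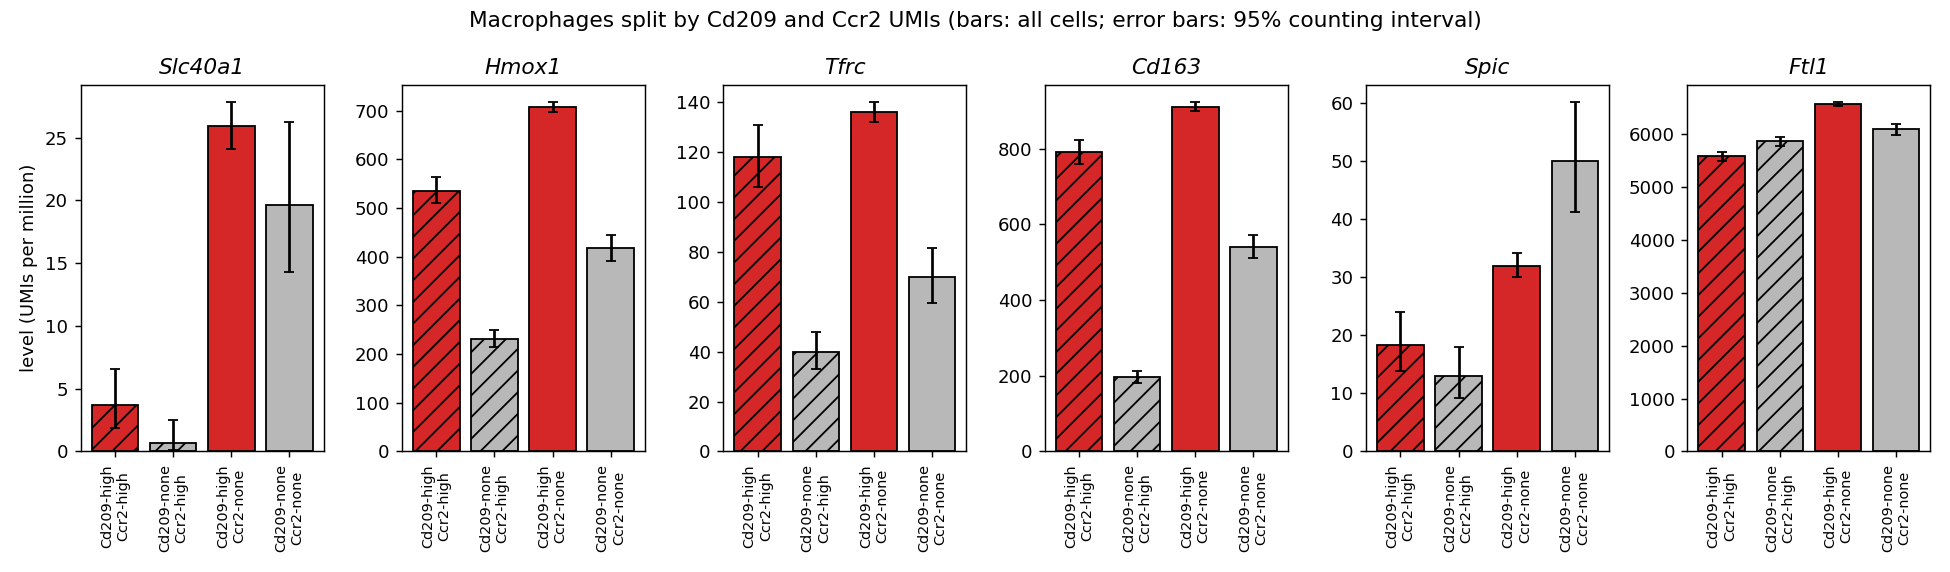
Level (CPM, bars from 0) of Slc40a1, Hmox1, Tfrc, Cd163, Spic and Ftl1 in macrophages crossed by Cd209 (red for Cd209-high) and Ccr2 (hatched for Ccr2-high); error bars are exact 95% counting intervals. Slc40a1 is low in both hatched bars (3.69 and 0.700 CPM), and Cd163 is higher in both red bars than in their Cd209-none partners.

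Spic was then used to divide the Cd209-none macrophages, into 102 cells with at least 1 Spic UMI (median 7800 UMIs per cell) and 611 with 0 (median 6843). Each suffix held 4 to 19 of the Spic-detected cells, below the minimum of 20 used for suffix values of the classes. Directions counted over suffixes in this division thus rest on few cells. Of 8 other members at 10 CPM, Slc40a1 alone was higher past the fold and 0 were lower, with 7.78% of 8568 genes higher and 11.1% lower. It was at 38.9 CPM in Spic-detected and 6.99 CPM in Spic-none cells, a ratio of 5.57 (3.35 to 9.28) that rested on 34 and 33 UMIs and was higher in 5 of 8 suffixes. Having reached 10 CPM in Spic-detected cells alone, Slc40a1 could only be counted as higher, so nothing is read from the count. The 67 Slc40a1 UMIs of Cd209-none macrophages lay in 39 cells, with up to 12 in 1 cell. The ratio was 5.81 within suffixes 1 to 4 and 3.65 within suffixes 5 to 8. Over all macrophages it was 2.16 (1.87 to 2.49), higher in 8 of 8 suffixes, and among Cd209-high cells it was 1.92 (1.64 to 2.25), higher in 7 of 8.

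Ftl1 came close to the fold, at 8307 CPM in Spic-detected and 5643 CPM in Spic-none cells (ratio 1.47, 1.43 to 1.51), higher in 8 of 8 suffixes, with 1.71 and 1.23 within the sets. Fth1 was at 6937 and 6111 CPM (1.14), higher in 5 of 8 suffixes, so that the Fth1 to Ftl1 ratio was 0.835 in Spic-detected and 1.08 in Spic-none cells. Slc11a2 was at 157 and 107 CPM (1.46), but with 1.01 and 2.05 within the sets. Tfrc was at 40.1 and 58.4 CPM (0.686), higher in none of 8 suffixes. Hmox1 was at 326 and 314 CPM, Cd163 at 403 and 345 CPM and Slc11a1 at 114 and 101 CPM. These calls near the fold turned on single suffixes. On the log2 scale, Slc11a2 passed it without suffix 2 (0.63), 3 (0.72) or 4 (0.60), Ftl1 without suffix 5 (0.60) or 7 (0.62), and Tfrc, in the lower direction, without suffix 3 (-0.72) or 6 (-0.62).

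Vcam1, an adhesion molecule of red pulp macrophages, was at 351 and 113 CPM in these groups (ratio 3.11). Haemoglobin RNA gave 75 UMIs in each group, but 62 of the 75 in Spic-detected cells came from 1 cell, and 10.8% of Spic-detected against 11.3% of Spic-none cells held any. The dissociation genes Hspa1a and Hspa1b, 2 of 12 past the fold, were at 345 and 87.0 CPM in Spic-detected and 218 and 55.7 CPM in Spic-none cells. Their part in the Spic result was not tested.

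The wider pathway was read in lists of other iron and haem genes. In the Cd209 split 2 of 12 haem genes at 10 CPM were higher and 0 lower, with a median log2 ratio of 0.21 against 0.05 for all genes. These were Blvrb, a biliverdin reductase, at 456 CPM in Cd209-high and 261 CPM in Cd209-none cells (1.75), and Ppox, an enzyme of haem synthesis, at 10.8 and 6.61 CPM (1.63). Of 19 iron genes 3 were higher and 0 lower, with a median of 0.21. Cp, the ferroxidase ceruloplasmin, was at 135 and 72.4 CPM (1.87), Ncoa4, the receptor that takes ferritin to the lysosome, at 113 and 62.2 CPM (1.82), and Neo1, a hemojuvelin receptor, at 10.8 and 4.64 CPM (2.32). The shares higher were 16.7% of the haem and 15.8% of the iron genes, against 8.60% of all genes, and rest on 2 and 3 genes. Ppox and Neo1 reached 10 CPM in Cd209-high cells alone and could only be counted as higher, so nothing is read from these shares.

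Of all genes, 8.60% were higher and 8.25% lower in the Cd209 split. Of 12 oxidant response genes 0 were higher and 1 lower, with a median of -0.03. That gene was Slc7a11, the cystine transporter, at 1.43 CPM in Cd209-high and 16.8 CPM in Cd209-none cells. Of 8 genes of red pulp macrophages at 10 CPM 5 were higher and 2 lower, with a median of 0.70. Among those higher, Timd4, a receptor for apoptotic cells, was at 120.3 and 46.6 CPM (2.58), Fcna at 337 and 145 CPM (2.33), the transcription factor gene Maf at 1054 and 561 CPM (1.88), and Siglec1 at 19.6 and 10.7 CPM. Vcam1 (63.2 and 150.1 CPM) and Nr1h3 (6.20 CPM in Cd209-high cells, 2.42-fold lower), a nuclear receptor gene of lipid metabolism in macrophages, were lower. Of 12 dissociation genes, 1 was higher, Ier3 at 1468 and 868 CPM (1.69), and the single red cell gene at 10 CPM was inside the fold.

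The genes named next were chosen after their values were seen. In the Ccr2 division 7 of 19 iron genes were lower and 1 higher, or 36.8% and 5.26% against 9.96% and 8.12% of all genes, with a median log2 ratio of -0.19 against -0.05. Among those lower were Cp, at 52.0 CPM in Ccr2-high and 138 CPM in Ccr2-none cells, Ncoa4 (59.5 and 113 CPM), Trf (532 and 829 CPM), and Bmp2, which induces hepcidin (35.2 and 83.6 CPM). Slc39a14 was the gene that was higher (21.8 and 12.7 CPM). The 7 lower genes also held Scara5 (6.76 and 11.9 CPM) and Steap4 (4.96 and 13.9 CPM), which had their highest levels in fibroblasts. Both of them and Neo1 (3.46 and 11.1 CPM) reached 10 CPM in Ccr2-none cells alone and could only be counted as lower. Summed fibroblast markers were at 219.8 CPM in Ccr2-high and 311 CPM in Ccr2-none cells, and the part of free fibroblast RNA was not tested. Of 12 haem genes, Blvrb was lower (254 and 457 CPM) and Flvcr1, a haem exporter, higher (32.9 and 17.7 CPM).

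Of all genes, 9.96% were lower and 8.12% higher in Ccr2-high cells. Of 7 red pulp genes 4 were lower in Ccr2-high cells, among them Timd4 (25.6 and 128 CPM), Fcna (111 and 347 CPM) and Maf (532 and 1067 CPM). Slc7a11 was the 1 oxidant response gene that was higher, at 26.0 CPM in Ccr2-high and 0.570 CPM in Ccr2-none cells. It reached 10 CPM in Ccr2-high cells alone and could only be counted as higher. Of 12 dissociation genes 2 were lower, Jun (2130.2 and 3254 CPM) and Ier3 (865 and 1478 CPM). Blvrb, Cp, Ncoa4, Timd4, Fcna and Maf were thus past the fold in both divisions, and the Cd209-none and Ccr2-high groups share cells.

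In the Spic division 3 of 18 iron genes were higher and 3 lower, 16.7% each way against 7.78% and 11.1% of all genes, with a median of 0.09. Trf was at 852 CPM in Spic-detected and 561 CPM in Spic-none cells, Hfe, a regulator of hepcidin, at 84.7 and 51.7 CPM, and Mcoln1, a lysosomal cation channel, at 26.3 and 16.3 CPM. Those lower were Slc39a14, Aco1, which encodes iron regulatory protein 1, and Cisd1. The counting intervals of the ratios for Mcoln1 (0.967 to 2.60), Slc39a14 (0.270 to 1.12) and Aco1 (0.319 to 1.10) include 1. Of 11 haem genes Blvrb was higher (417 and 232 CPM), and Flvcr1 (ratio 0.622, 0.346 to 1.05) and Alas1 were lower. Vcam1 and Nr1h3 (21.7 and 13.8 CPM) were higher of 8 red pulp genes, and Srxn1 (9.16 and 16.1 CPM) was lower of 12 oxidant response genes; the intervals for Nr1h3 (0.895 to 2.67) and Srxn1 (0.237 to 1.18) include 1. The 3 red cell genes at 10 CPM, Hba-a1, Hba-a2 and Hbb-bs, were all higher, resting on the 1 cell described above. Hba-a1 and Hba-a2 reached 10 CPM in Spic-detected cells alone and could only be counted as higher. Cisd1 (6.87 and 16.9 CPM) and Srxn1 reached it in Spic-none cells alone and could only be counted as lower.

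Across classes, the highest level of most list genes lay outside macrophages. Of 17 haem genes at 10 CPM in a class, 7 were highest in mesothelial cells and 3 in macrophages, and of 27 iron genes 7 were highest in mesothelial cells, 4 in macrophages and 4 in lymphatic endothelial cells. Of all 12827 genes at 10 CPM in a class, 12.4% were highest in mesothelial cells, 9.05% in macrophages and 7.66% in lymphatic endothelial cells. The examples were again chosen after their values were seen. Macrophages led for Trf, which encodes transferrin (777 CPM), Blvrb (422 CPM) and Slc25a37, the mitochondrial iron importer (61.4 CPM). Lymphatic endothelial cells led for Cp (1028 CPM), Lcn2, a siderophore-binding protein (406 CPM), and Slc39a14, a metal importer (173 CPM). Fibroblasts led for Scara5, a ferritin receptor (302 CPM), and the metalloreductase gene Steap4 (147 CPM), mesothelial cells for Ncoa4 (335 CPM), and blood endothelial cells for Abcg2, a porphyrin exporter (327 CPM).

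For each member the 3 genes with the most similar levels over the 11 classes were found by Pearson correlation of log2(CPM + 1) among 12827 genes. All classes come from the same matrix, so these are descriptions with n = 11. Slc40a1 was closest to Cfap299 (0.965), Pla2g2d (0.964) and C6 (0.954), and Hmox1 to Atp6v1a (0.981), Nfxl1 (0.960) and Acp2 (0.945). Tfrc was closest to Lin52 (0.920), Naa50 (0.916) and Pdpk1 (0.903), and Cd163 to Rragc (0.948), Alox5 (0.948) and Fxyd2 (0.943). For each of these members macrophages stood above the other classes, which alone gives high values with so few points.

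Slc11a2 was closest to Ccl12 (0.923), Fcna (0.921) and Fxyd2 (0.918), and Spic to Washc2 (0.984), Fnip1 (0.979) and Gm47675 (0.974). Ftl1 was closest to its copy Ftl1-ps1 (0.952), then to Tmem106a (0.926) and Tgfbi (0.910). Slc11a1 was closest to Adap2 (0.917), Hdac5 (0.893) and Adap2os (0.892), and Fth1 had the weakest partners, among them Gm10605 (0.851) and Rassf8 (0.848).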

How the data were processed

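Cells of collecting lymphatic vessels were dissociated with papain and then with collagenase A and dispase II, and RNA was read by droplet single-cell sequencing. The authors deposited raw gene counts (UMIs) per barcode in 1 matrix with 12 multiplexing tags. Cell Ranger 7.1.0 is named per the file headers, and mm10 and Seurat 4.3.0.1 per the submitters' processing notes; the counting annotation was not given in the sources used here.

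From these counts, barcodes below 500 UMIs or 300 genes, or with 15% or more of UMIs from mitochondrial genes, were dropped (380 of 24046), and 806 doublets (3.41%, expected 6%) were removed with Scrublet in scanpy 1.11.5. Gates on raw UMIs placed 16513 cells in 1 class; 6144 were in none and 203 in 2 or more, and these were left out. Macrophages needed at least 1 Adgre1 and 2 C1qa UMIs. Cells with a Ptprc UMI were kept out of the fibroblast, smooth muscle, pericyte, mesothelial and endothelial classes. Cells with more than 1 C1qa UMI were kept out of the monocyte and dendritic classes, and cells with Adgre1 out of the dendritic class. Markers of other lineages were used for further exclusions. Monocytes were chosen with Ly6c2, Plac8 and Lyz2, dendritic cells with Flt3 and H2-Ab1, fibroblasts with Pdgfra, Col1a1 and Dcn, smooth muscle with Myh11 and Acta2, pericytes with Rgs5 and Notch3, mesothelial cells with Upk3b and Msln, lymphatic endothelial cells with Prox1, blood endothelial cells with Cdh5, Pecam1 and Flt1, B cells with Cd79a and Ms4a1, and T cells with Cd3e and Trac.

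UMIs were summed per class and scaled to CPM. Past the fold means a ratio of CPM + 1 of at least 1.5 (macrophage divisions) or 2 (classes), with 10 CPM in either group. Intervals are exact Poisson, conditional binomial and Clopper-Pearson at 95%. Named list genes are those past the fold in the Cd209 split, at most 5 per list and direction. Some genes that this rule names are not reported here. The members, lists and settings were chosen with earlier results of these data known. The scripts ran in Python 3.11.15 with numpy 2.4.6, scipy 1.17.1, pandas 2.3.3 and matplotlib 3.10.9, and were tested on simulated data. Alternatives covered the gates, doublets, scaling, pseudocount, minimum level, fold, thinning to 2000 UMIs and leaving out each suffix.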

Additional observations from a re-analysis of the deposited data

How the results depend on the processing

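On the log2 scale, 1 value past the fold turned direction: Slc40a1 in the Cd209 split was 0.91, and -0.51 when cells were thinned to 2000 UMIs before gating (21414 cells kept, 1446 left out). That setting also put 168 cells that had at least 2 Cd209 UMIs among the 630 Cd209-none cells, and 8 of the 42 Slc40a1 UMIs there were in 1 cell, against 12 of 67 before thinning; the cause was not tested. Values inside the fold also crossed 0: in the Cd209 split Slc11a2 (0.32) was -0.05 after thinning, Slc11a1 (-0.13) was 0.04 without Ccr2 cells and Spic (-0.24) was 0.01 without suffix 3; in the Ccr2 division Slc11a1 (0.04) was -0.01 without suffix 1; in the Spic division over all macrophages Cd163 (0.22) was -0.04 and Hmox1 (0.05) was -0.18, and Hmox1 was -0.16 without suffix 6. Among Ccr2-none macrophages, a setting added after seeing the data, the count lower in the Cd209 split was 1 (Spic, -0.63) in place of 0, and Slc40a1 (0.38) was no longer past the fold. Leaving out each suffix in turn gave 1 to 2 members higher and 0 to 1 lower in the Spic division, against 1 and 0 with all suffixes: 2 higher without suffix 2, 3, 4, 5 or 7, and 1 lower without 3 or 6. The count higher in the Cd209 split was 3 to 4 under every setting, that between classes 76 to 81 (77 in the report), and that lower in Ccr2-high cells 5 under the 2 settings run and without each suffix, though with Slc11a2 (-0.70) in place of Tfrc (-0.09) after thinning. Over the settings other than leaving out a suffix, Cd163 ranged from 0.65 to 1.47, Hmox1 from 0.69 to 1.18 and Tfrc from 0.90 to 1.35 in the Cd209 split. In the Spic division only 2 such settings were run: all macrophages whatever their Cd209, and without cells of 10 or more haemoglobin UMIs. Slc40a1 was from 1.07 to 2.20 under them, and neither thinning nor other gates were tried there. Slc11a1 ranged from 0.31 to 0.75 for smooth muscle over macrophages. In the Ccr2 division Slc40a1 (-3.03) ranged from -4.92 to -1.91 and Spic (-1.21) from -3.01 to -0.76. Cd163 (-0.89) ranged there from -0.88 to -0.72, Hmox1 (-0.84) from -0.93 to -0.69 and Tfrc (-0.76) from -0.62 to -0.09. Thinning to 2000 or 1000 UMIs left 7 of 10 members with their highest share of positive cells in macrophages. Depth limits Hpx, with 1 UMI in Cd209-none cells, and Slc40a1, with 67. No test was made, and so no paired analysis either. Both groups lie in every suffix, and the report gives the direction in each.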

Other observations

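Some levels differed between barcode suffixes 1 to 4 and 5 to 8 with no overlap between the sets; what separates these sets was not given in the sources used here. Both sets had the same 4 leading multiplexing tags, with 1 suffix per tag, and no label names the mouse or sex behind a tag or suffix. In macrophages Hmox1 was at 491 to 521 CPM in suffixes 1 to 4 and 567 to 749 CPM in suffixes 5 to 8, Slc11a1 at 102 to 112 and 83.1 to 93.8 CPM, and Spic at 34.3 to 45.2 and 24.9 to 29.8 CPM. Slc40a1 in Cd209-high macrophages was at 24.8 to 55.9 CPM in suffixes 1 to 4 and 5.60 to 23.9 CPM in suffixes 5 to 8.

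Fibroblasts showed such gaps in the same direction for Slc40a1, at 2.04 to 3.73 CPM in suffixes 1 to 4 and 0.365 to 1.37 CPM in suffixes 5 to 8. Their Fth1 was at 6699.8 to 7965 and 9239 to 10412 CPM. Smooth muscle Hmox1 was at 6.52 to 9.23 CPM in suffixes 1 to 4 and 12.4 to 17.0 CPM in suffixes 5 to 8, with Ftl1 at 666 to 749 and 778 to 909 CPM. Cd163 UMIs outside macrophages were also higher in suffixes 5 to 8, at 2.77 to 3.87 and 7.40 to 9.62 CPM in fibroblasts and at 3.46 to 5.22 and 9.18 to 12.1 CPM in smooth muscle. Over all suffixes both levels lay within the C1qb range given above for free RNA, so free RNA and RNA of these cells cannot be told apart here.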
